A study of Homo sapiens with 7 samples.

Results

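Small RNA host genes are long non-coding RNA genes whose introns or exons hold small RNAs. They were taken from the table of normalized counts by gene name. Genes named SNHG with a number, together with GAS5, ZFAS1 and DANCR, made up the snoRNA hosts, and genes named MIR...HG made up the microRNA hosts. The rule used no measured value and found 74 of 21305 genes, namely 30 snoRNA hosts and 44 microRNA hosts. The names were checked against GENCODE release 44 on hg38. There, 29 of the 30 snoRNA hosts contained a small nucleolar or small Cajal body RNA. These were 143 gene entries in all, some sharing a name, and 84 of them were in SNHG14. For GAS5, GENCODE placed none inside the gene, and RefSeq placed 11 there. All 43 microRNA hosts found in the annotation contained a microRNA (73 in all). The classes are not fully apart, since 2 snoRNA hosts, DANCR and SNHG20, also held a microRNA gene. MIR30DHG was not found in that release by its identifier, so its content was not checked.

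A snoRNA host is transcribed as a precursor from which the small RNA is released out of an intron, while the spliced remainder becomes a long non-coding RNA. Many box C/D snoRNAs (the SNORD genes) guide methylation of ribosomal RNA, and many box H/ACA snoRNAs (the SNORA genes) guide its pseudouridylation, though not all do. The scaRNAs act in the same way on spliceosomal RNA. Many hosts are known to start in a run of pyrimidines like the mRNAs of ribosomal proteins and to be degraded by nonsense-mediated decay when translated. A microRNA host works differently, because the nuclear enzyme DROSHA cuts the microRNA hairpin out of the primary transcript.

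RNA was sequenced from 501Mel cells, an established human melanoma line of melanocytic type, that carried a doxycycline-inducible short hairpin. All 7 libraries were induced, and the study took RNA after 3 days. Of these, 3 carried a hairpin against bacterial lacZ (shlacZ, the control), 2 carried sh4 and 2 carried sh8, both aimed at the long non-coding RNA GRASLND. Each line was a pool of transduced cells selected with puromycin, no untreated cells were among the samples, and nothing in the labels shows that replicates came from separate cultures, so p-values may measure technical spread only.

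Depth was 13337317 to 22855232 recovered reads per library, and the normalized count is the count per gene divided by 1 size factor for its library. GRASLND had 309 ± 20.1 normalized counts (SD, n = 3) in the control, 131 to 175 under sh4 and 163 to 227 under sh8, and its log2 fold change for both hairpins together was -0.85 (adjusted p = 0.0402). That call was lost in 6 of the 7 fits that left out a library and kept without sh8 replicate 1. Control replicate 1 stood apart, with a root mean square log2 difference of 0.636 and 0.626 from the other controls against 0.466 between those, so counts are also given without it. The summed level of 8 melanocytic markers, including PMEL and MLANA, was 135855 to 146631 in the control, 52282 to 60068 under sh4 and 101817 to 104837 under sh8. Of the markers of other cells, 1 of 5 fibroblast genes was in the table (COL1A1, 5.24 to 16.4 in every library), as were KRT10 of 4 keratinocyte genes (133 to 206) and 2 of 5 immune genes. The summed immune level was 498 to 675 in the control, 914 to 933 under sh4 and 573 to 678 under sh8, through LYZ (0 to 4.19 in the control, 337 to 492 under sh4). The part of these shifts in the results on host genes was not tested.

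Levels in the control libraries were compared per kilobase (kb) of annotated exon, with the length of all annotated exons of a gene merged (exon union). By that length the highest snoRNA hosts were SNHG16 with 939.6 ± 92.7 normalized counts per kb, SNHG3 with 930.4 ± 105, GAS5 with 737 ± 45.1, SNHG32 with 734 ± 135 and SNHG6 with 692 ± 42.5 (SD, n = 3 each). The ranges of SNHG16 (873 to 1045) and SNHG3 (856 to 1050.5) overlapped, as did those of GAS5, SNHG32, SNHG6 and the next host, SNHG29 (621 to 714), so the order within each set is not fixed by these libraries. By the same length the highest microRNA host, MIR3142HG, which holds miR-146a, reached 259 ± 50.04 per kb (MIR30DHG has no annotated length). The next, MIRLET7A1HG, had 54.9 ± 10.3 and holds let-7a, let-7f and let-7d, followed by MIR181A1HG with 52.3 ± 15.3, MIR181A2HG with 49.3 ± 4.16 and MIR222HG with 47.1 ± 14.5. The ranges of the latter 4 overlapped. The order rests on the length used, since per kb of the canonical transcript SNHG29 (13630 normalized counts), SNHG16 (10897) and GAS5 (4732) came first and SNHG3 had 1728. On that length MIR4435-2HG (1626), MIR17HG (448) and MIRLET7A1HG (406) had more than MIR3142HG (279).

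Per gene, 11 snoRNA hosts had a mean of at least 1000 normalized counts over the 7 libraries, 10 lay between 100 and 1000 and 7 between 10 and 100. Among the microRNA hosts these numbers were 1 (MIR4435-2HG), 15 and 18. Genes with a mean under 10 were not tested, which left out 2 snoRNA hosts (SNHG25 and SNHG28, with means of 2.23 to 5.23) and 10 microRNA hosts with means of 1.36 to 8.07. The latter were MIR100HG, MIR3150BHG, MIR1302-9HG, MIR3677HG, MIR4713HG, MIR2052HG, MIR34AHG, MIR3659HG, MIR302CHG and MIR378D2HG. Together the snoRNA hosts took 0.240% ± 0.00769 (SD, n = 3) of all normalized counts in the control, 0.132% and 0.143% under sh4 and 0.194% and 0.195% under sh8. The microRNA hosts took 0.0308% to 0.0420% in the control, 0.0308% and 0.0319% under sh4, and 0.0359% and 0.0398% under sh8. The summed snoRNA hosts of the control therefore lay above those of every knockdown library, whereas for the microRNA hosts the groups overlapped. In bulk RNA, fewer cells that express a gene and less RNA per cell cannot be told apart.

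Under sh4, 18 of the 28 tested snoRNA hosts fell at an adjusted p under 0.05 (limma on log2 normalized counts, adjusted over all 15420 tested genes), and 0 rose. In the background, 11.9% of all tested genes were lower and 10.5% higher by the same rule. Of the 18, 11 also fell by more than 1 on the log2 scale, against 3.37% of all genes. The median log2 fold change of the tested snoRNA hosts was -0.81, against -0.01 for all tested genes, with an interquartile range of -1.09 to -0.33. In 21 of 28 both sh4 libraries lay under all 3 control libraries, against 25.6% of all genes. Without control replicate 1 the count was 19, and leaving out single libraries gave 12 (without sh4 replicate 2) to 19.

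**Figure D1:**
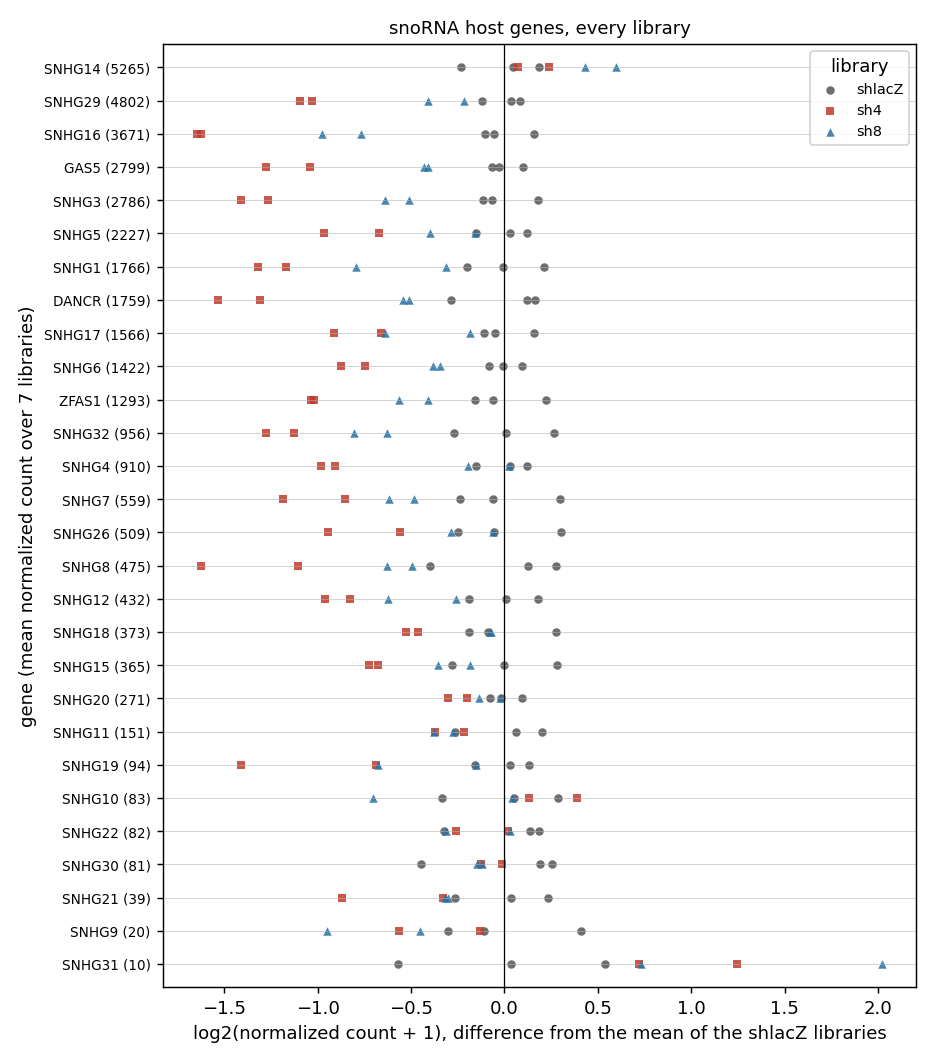
Each point is 1 library's log2(normalized count + 1) minus the mean of the 3 shlacZ libraries (x axis) for the 28 tested snoRNA hosts (y axis, ordered by mean level). Red squares (sh4) lie left of every grey circle (shlacZ) for 21 of the 28 genes, and blue triangles (sh8) mostly fall in between.

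SNHG16, which holds the box C/D genes SNORD1A, SNORD1B and SNORD1C, fell most. It had 5043, 6038 and 5200 normalized counts in the control, 1754 and 1732 under sh4, and 3179 and 2753 under sh8. All 4 knockdown libraries lay under the control, and the sh4 libraries lay lowest. Its log2 fold change was -1.63 ± 0.12 (SE) under sh4 (adjusted p = 8e-05), a change of the mean by -67.9%, and -0.87 ± 0.12 under sh8 (adjusted p = 0.00702). SNHG16 is on chr17:76557727-76670985, plus strand.

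SNHG3, the host of the box H/ACA genes SNORA73A and SNORA73B, had 3499, 4294 and 3617 normalized counts in the control, 1423 and 1578 under sh4, and 2657 and 2431 under sh8. The 3 groups did not overlap. The log2 fold change was -1.34 ± 0.13 with sh4 (adjusted p = 0.000165) and -0.58 ± 0.13 with sh8 (adjusted p = 0.0437). Its exons (chr1:28505980-28510892) overlap those of RCC1 on the same strand, so reads of the pair may be shared.

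GAS5, named for its rise in growth-arrested cells, had 3461, 3885 and 3558 normalized counts in the control, 1764 and 1497 under sh4, and 2692 and 2736 under sh8. The groups again did not overlap. Its sh4 log2 fold change of -1.16 ± 0.12 passed (adjusted p = 0.000236), while the sh8 value of -0.42 ± 0.12 did not (adjusted p = 0.0926). SNHG29 (5556, 6386 and 6173 in the control, 2949 and 2824 under sh4, 4542 and 5185 under sh8), which holds SNORD49A, SNORD49B and SNORD65, showed the same order. Its log2 fold change was -1.06 ± 0.12 with sh4 (adjusted p = 0.000335) and -0.31 ± 0.12 with sh8 (adjusted p = 0.19).

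DANCR, named for holding back differentiation of progenitor cells and host of SNORA26, had 1958, 2670 and 2596 normalized counts in the control, 823 and 962 under sh4, and 1634 and 1673 under sh8. Its sh4 log2 fold change, -1.42 ± 0.15 (adjusted p = 0.000314), was next to that of SNHG16 in size. ZFAS1, which lies opposite ZNFX1 and holds 3 SNORD12 genes, had 1493, 1944 and 1598 in the control, 821 and 812 under sh4, and 1127 and 1254 under sh8. Its sh4 log2 fold change was -1.03 ± 0.14 (adjusted p = 0.000961). Neither passed under sh8 alone, where DANCR had a log2 fold change of -0.53 (adjusted p = 0.0994) and ZFAS1 one of -0.49 (adjusted p = 0.0941).

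Further hosts fell under sh4 with groups that did not overlap. SNHG1 holds 7 box C/D gene entries in GENCODE, with SNORD22 listed more than once. It had 2344, 2725 and 2048 normalized counts in the control, 1049 and 943 under sh4, and 1897 and 1358 under sh8. SNHG32, host of SNORD48 and SNORD52, had 1082, 1568 and 1315, then 597 and 539, then 749 and 845. Their log2 fold changes under sh4 were -1.24 ± 0.17 (adjusted p = 0.001) and -1.20 ± 0.16 (adjusted p = 0.00101). SNHG8, host of SNORA24, had 485, 773 and 697 in the control, 207 and 296 under sh4, and 413 and 453 under sh8. Its log2 fold change under sh4 was -1.37 ± 0.22 (adjusted p = 0.0025).

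SNHG7, host of SNORA17 genes, had 615, 891 and 695 normalized counts in the control, 401 and 318 under sh4, and 518 and 472 under sh8. The sh4 libraries lay lowest, and their log2 fold change was -1.02 ± 0.18 (adjusted p = 0.00388). SNHG4, host of SNORA74A, had 1094, 1168 and 966.5, then 573 and 543, then 1090.1 and 936.5. Only its sh4 libraries were low, since those of sh8 overlapped the control, and its log2 fold changes were -0.94 ± 0.14 (adjusted p = 0.00132) and -0.09 ± 0.14 (adjusted p = 0.782). SNHG4 overlaps MATR3 on the same strand and SIL1 on the other.

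The remaining calls under sh4 were smaller or of lower genes. SNHG5, host of SNORD50B, had 2416, 2917 and 2746 normalized counts in the control, 1377 and 1687 under sh4, and 2040 and 2406 under sh8 (sh4 log2 fold change -0.82, adjusted p = 0.00322). SNHG6, host of SNORD87, had 1863, 1736 and 1649, then 952 and 1040, then 1373 and 1339 (-0.81, adjusted p = 0.00129). In both genes every knockdown library lay under the control. SNHG17, host of SNORA71 genes, had 1857, 2151 and 1785, then 1215 and 1022, then 1692 and 1238 (-0.79, adjusted p = 0.00711). SNHG12, which holds SNORD99 and several SNORA genes, had 545, 615 and 476, then 305 and 278, then 452 and 351 (-0.89, adjusted p = 0.00534). These also kept the order of control, sh8 and sh4. SNHG26, host of SNORD93, had 732, 497.5 and 569.8, then 401 and 307.5, then 485 and 568 (-0.75, adjusted p = 0.0207). SNHG15, host of SNORA9, had 355, 524 and 429.7, then 269 and 260.5, then 378 and 337 (-0.70, adjusted p = 0.0211). SNHG19, host of SNORD60, had 106, 129.9 and 121, then 73.4 and 44.03, then 107 and 73.7 (-1.05, adjusted p = 0.0247). In these 3 genes both sh4 libraries lay under the control, while 1 sh8 library lay under it and 1 within its range.

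Of the 18 calls, 12 held whichever library was left out. SNHG7, SNHG12, SNHG17 and SNHG26 were lost without sh4 replicate 2 (adjusted p = 0.053, 0.0571, 0.0787 and 0.172). SNHG15 was also lost without sh4 replicate 1 and without control replicate 2 or 3 (adjusted p up to 0.117). SNHG19 was lost without sh4 replicate 2 and without control replicate 2 or 3 (adjusted p up to 0.206).

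The remaining tested snoRNA hosts did not pass under sh4. SNHG14, the very long transcript of the imprinted SNRPN and UBE3A locus (chr15:24978583-25420336), had 5164, 3874 and 4688 normalized counts in the control, 5357 and 4776 under sh4, and 6119 and 6875 under sh8. Its sh8 libraries lay above the control, with a log2 fold change of 0.51 ± 0.14 (adjusted p = 0.0866), while under sh4 it was 0.15 ± 0.14 (adjusted p = 0.472). It shares exons with SNRPN on its own strand and faces UBE3A on the other. SNHG18, SNHG20 and SNHG11 were lower under sh4 without passing, with log2 fold changes of -0.49, -0.25 and -0.29 (adjusted p = 0.0616, 0.272 and 0.334). Where the mean reached 100, both sh4 libraries lay under all controls in 19 of 21 snoRNA hosts, against 30.4% of all such genes. Below a mean of 100, SNHG10, SNHG22, SNHG30, SNHG21, SNHG9 and SNHG31 had values between -0.60 and 0.98, and none passed.

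Level and class were looked at together, since higher genes pass the test more often. Where the mean normalized count reached 100, 17 of 21 snoRNA hosts fell under sh4, 2 of 16 microRNA hosts did, and so did 15.3% of all 10770 such genes and 9.55% of the 597 other long non-coding RNA genes. The medians were -0.94, -0.36, -0.06 and 0.04. Of the snoRNA hosts under 100, 1 of 7 fell, with a median of -0.12.

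**Figure D2:**
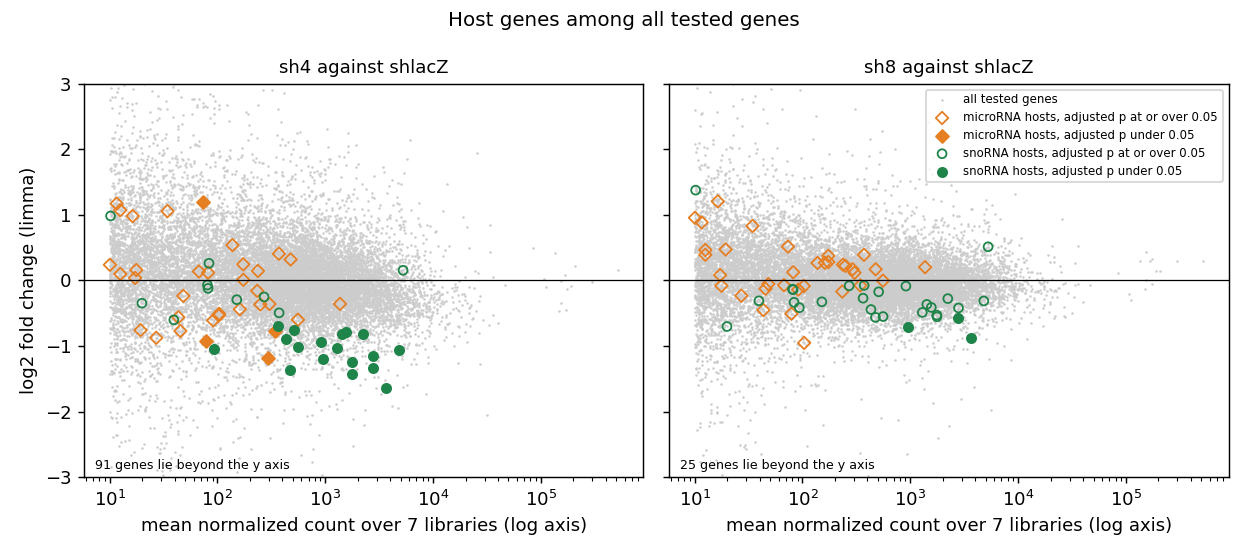
Log2 fold change (y axis) against the mean normalized count over the 7 libraries (x axis, log scale) for sh4 (left) and sh8 (right) against shlacZ. Grey dots are all 15420 tested genes, green circles snoRNA hosts and orange diamonds microRNA hosts, filled where the adjusted p was under 0.05. The snoRNA hosts with a mean of at least 100 sit under 0 except SNHG14. Of the 18 filled green circles on the left 17 have such a mean and the other is SNHG19, and 3 are filled on the right.

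Under sh8, 3 of 28 snoRNA hosts fell (SNHG16, SNHG3 and SNHG32), against 1.54% of all tested genes, and 0 rose, against 1.38%. SNHG32 stood at the threshold, with a log2 fold change of -0.72 ± 0.16 and an adjusted p of 0.04996. The direction was more widely shared, since 26 of 28 had a log2 fold change under 0 (51.2% of all genes) and in 17 both sh8 libraries lay under all controls (17.9% of all genes). The median was -0.35. The count was 9 without control replicate 1, 1 when control replicate 2 or 3, either sh4 library or sh8 replicate 1 was left out, and 0 without sh8 replicate 2. At an unadjusted p under 0.05, 15 of 28 members passed, against 18.5% of all genes.

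With both hairpins together (n = 4) against the control (n = 3), 6 of 28 snoRNA hosts fell, against 2.06% of all genes. They were SNHG16 with a log2 fold change of -1.25 (adjusted p = 0.0173), SNHG32 with -0.96 (0.0253), SNHG3 with -0.96 (0.039), ZFAS1 with -0.76 (0.0438), SNHG1 with -0.90 (0.0498) and SNHG7 with -0.79 (0.0498). No snoRNA host rose, against 2.55% of all genes. In 15 of 28 all 4 knockdown libraries lay under all 3 controls, against 11% of all genes, and in 1, SNHG31, all lay above them (10.2% of all genes), at 9.03 to 23.7 normalized counts against 3.10 to 7.83. This count moved with the libraries. It was 0 without control replicate 2 or 3, 1 without sh4 replicate 1, 2 without control replicate 1 or without sh4 replicate 2, and 11 without sh8 replicate 1. The fit with 2 groups counts the difference between the hairpins as spread, and a fit that gave each hairpin its own mean gave 15.

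Set directly against sh8, the sh4 libraries were lower in 6 of 28 snoRNA hosts (3.33% of all genes) and higher in 0 (3.67%). These were DANCR (-0.89 ± 0.17), SNHG4 (-0.86), SNHG16 (-0.76), SNHG3 (-0.76), SNHG29 (-0.75) and GAS5 (-0.74), with adjusted p between 0.00852 and 0.0129. In 22 of 28 both sh4 libraries lay under both sh8 libraries, against 27.6% of all genes. Without control replicate 1 the count was 12, without sh4 replicate 2 it was 0, and without sh4 replicate 1, sh8 replicate 1 or sh8 replicate 2 it was 3, 1 and 2. The comparisons of sh4 and sh8 with the control share the same 3 control libraries, so they are not separate evidence of direction.

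For the microRNA hosts the shares that passed lay near or under those of all genes. With both hairpins together 0 of 34 tested members passed by limma (2.06% of all genes were lower and 2.55% higher), with 6 at an unadjusted p under 0.05 (17.6%, against 24.1% of all genes). Under sh8 again 0 passed by limma (1.54% of all genes were lower and 1.38% higher), with 4 at an unadjusted p under 0.05 (11.8%, against 18.5% of all genes). With limma-voom on the recovered reads both counts were also 0. The median log2 fold changes were -0.02 with both hairpins together (0.03 with upper-quartile scaling), -0.07 under sh4 and 0.17 under sh8. Under sh4, 3 fell (8.82%, against 11.9% of all genes) and 1 rose (2.94%, against 10.5%). Without sh4 replicate 2, only that of MIR17HG remained. Both sh4 libraries lay under both sh8 libraries in 13 of 34 (38.2%, against 27.6% of all genes) and above them in 3 (8.82%, against 26.6%). Where the mean reached 100, they lay under them in 9 of 16 (56.25%, against 30.6% of all such genes) and above them in 0 (against 26.4%). A test of the difference between the classes was not made, and the class counts are set against the share of all genes instead.

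**Figure D3:**
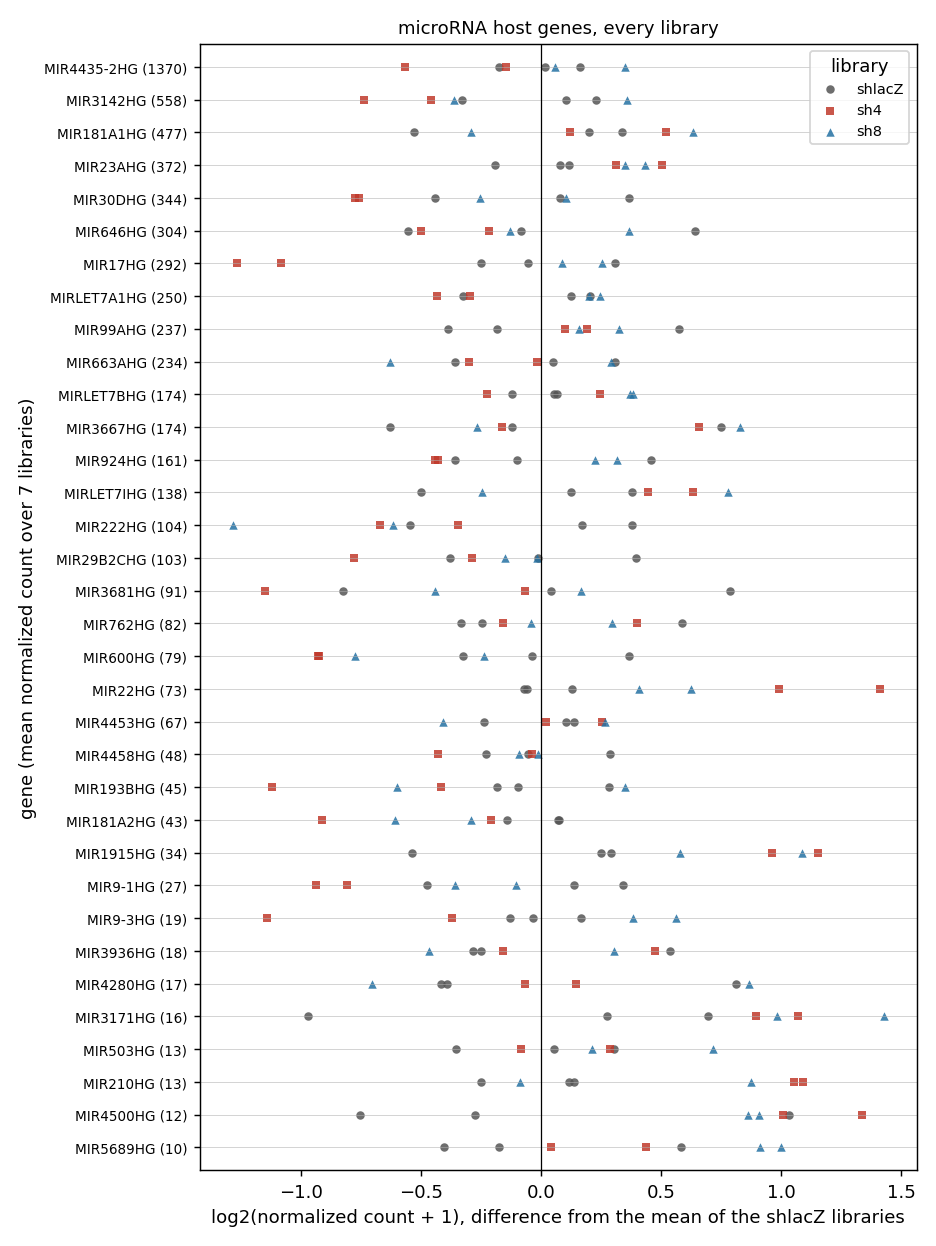
Each point is 1 library's log2(normalized count + 1) minus the mean of the 3 shlacZ libraries (x axis) for the 34 tested microRNA hosts (y axis, ordered by mean level). MIR17HG stands out with sh4 libraries (red squares) below -1 beside sh8 libraries (blue triangles) within the control range. MIR22HG is 1 of 4 genes (11.8%, against 10.2% of all tested genes) with all knockdown libraries above the control.

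MIR17HG, on chr13:91347686-91397592, carries the miR-17-92 cluster, a polycistron that MYC is known to activate. Its 6 main mature products fall into 4 seeds (bases 2 to 8, in capitals), shown because they say which target families the transcript feeds. The sequences are from RefSeq on GRCh38.p14, 5′ to 3′, and lie between 91350618 and 91351382 on chromosome 13.
miR-17-5p: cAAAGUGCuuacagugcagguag
miR-20a-5p: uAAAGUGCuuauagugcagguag
miR-18a-5p: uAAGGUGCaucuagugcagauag
miR-19a-3p: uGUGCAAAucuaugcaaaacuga
miR-19b-3p: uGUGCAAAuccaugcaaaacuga
miR-92a-3p: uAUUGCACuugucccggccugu

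MIR17HG had 409, 278 and 318 normalized counts in the control, 137 and 155 under sh4, and 394 and 351 under sh8. Its sh4 libraries lay under all others, and its sh8 libraries lay within the control range. The log2 fold change was -1.18 ± 0.19 with sh4 (adjusted p = 0.00258) and 0.17 ± 0.19 with sh8 (adjusted p = 0.683). The difference between the hairpins was -1.35 ± 0.21 (adjusted p = 0.00631), which made MIR17HG the only microRNA host of 34 to pass that test (3.33% of all genes were lower and 3.67% higher). The sh4 call held whichever library was left out. The difference between hairpins was lost without sh4 replicate 2 or sh8 replicate 1, where the highest adjusted p was 0.0657. The mature microRNAs were not measured, because reads of a total RNA library do not report them.

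MIR22HG, on chr17:1711447-1717174, was the only member of either class that rose. Its microRNA, miR-22, is known to be induced in differentiating and senescent cells, and its seed is in capitals.
miR-22-3p: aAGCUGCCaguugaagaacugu
MIR22HG had 46.4, 46.1 and 53.1 normalized counts in the control, 97.1 and 131 under sh4, and 75.1 and 64.6 under sh8. All 4 knockdown libraries lay above the control. The log2 fold change was 1.20 ± 0.25 with sh4 (adjusted p = 0.00762) and 0.52 ± 0.25 with sh8 (adjusted p = 0.306). The call was lost without sh4 replicate 2 (adjusted p = 0.0952).

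MIR600HG and MIR30DHG fell under sh4 near the threshold. MIR600HG, which overlaps STRBP on the same strand, had 129, 79.6 and 97.4 normalized counts in the control, 51.95 and 52.2 under sh4, and 58.0 and 84.6 under sh8, and its sh4 log2 fold change was -0.93 ± 0.28 (adjusted p = 0.0398). MIR30DHG had 504, 287 and 413, then 230.4 and 228, then 327 and 420.5, and its sh4 log2 fold change was -0.77 ± 0.23 (adjusted p = 0.0382). Both calls were lost without control replicate 1 or 3 and without either sh4 library, and that of MIR30DHG also without sh8 replicate 2 (adjusted p up to 0.172 for MIR600HG and 0.164 for MIR30DHG). The mature microRNA of MIR600HG is shown with its seed in capitals.
miR-600: aCUUACAGacaagagccuugcuc

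The other 30 tested microRNA hosts did not pass under sh4, with log2 fold changes from -0.87 (MIR9-1HG) to 1.17 (MIR4500HG). With both hairpins together all knockdown libraries lay above the control in 4 of 34 (10.2% of all genes) and under it in 1 (11% of all genes). MIR4435-2HG, the only microRNA host with a mean of at least 1000, and the 5 highest per kb of exon union did not pass any test. MIR4435-2HG had 1229 to 1552 normalized counts in the control, 937 and 1253 under sh4, and 1770 and 1443 under sh8. MIR3142HG had 483 to 712, then 442 and 364, then 472 and 779, and MIR181A1HG had 289 to 527, then 454 and 600.1, then 648.5 and 341. MIRLET7A1HG had 201.1 to 291, then 186 and 205, then 299 and 290.3. MIR181A2HG had 47.0 to 54.7, then 27.1 and 44.8, then 42.2 and 33.7, and all its knockdown libraries lay under the control. MIR222HG, host of miR-221 and miR-222, had 88.7 to 169, then 81.3 and 102, then 84.4 and 52.8.

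The small RNAs inside the hosts could be compared with them in part, since 16 snoRNA and scaRNA genes inside members were in the table and 12 of them were tested. None passed the limma test in any comparison, while 11.9% of all genes fell and 10.5% rose under sh4 at the adjusted threshold. None reached an unadjusted p under 0.05 either, against 36.1% of all genes under sh4. Their median level was 62.3 normalized counts, against 341 for all tested genes, and lower genes pass the test less often. Not passing therefore does not show that they were unchanged. The median sh4 log2 fold change of these 12 was -0.01. SNORA73A had 631, 801 and 615 normalized counts in the control, 780 and 605 under sh4, and 649 and 754 under sh8. SNORA73B had 596, 750.0 and 704, then 714 and 596, then 710.5 and 825. Neither separated the groups, while SNHG3 around them did. The library kit was made for total RNA and not for RNA this short, so counts of small RNAs may include precursor fragments and miss most of the mature molecules.

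SNORA73A and SNORA73B belong to 1 family, and reads may be split between them, so they were summed. Their last 30 bases are shown with the ACA box that defines the class in capitals, from hg38 at chr1:28507542-28507571 and chr1:28508733-28508762, plus strand.
SNORA73A: ctggggagacaaaccatgcaggaaACAgcc
SNORA73B: ctggggagacaaaccatgcaggaaACAtat

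The log2 ratio of SNHG3 to the summed pair was 1.51, 1.47 and 1.45 in the control, -0.07 and 0.39 under sh4, and 0.97 and 0.62 under sh8. All 4 knockdown libraries lay under the control, with a mean difference of -1.0004 (an exact two-sided permutation test over 35 splits gave p = 0.0571, where the smallest possible is 0.0286, and 0.143 adjusted over 5 pairs). The other 4 pairs were chosen, as this one was, after the values were seen, by a mean of at least 50 normalized counts for the small RNAs. SNHG20 and SCARNA16 had a ratio difference of -0.42 (exact permutation p = 0.0571), SNHG17 and its SNORA71 genes -0.47 (0.114), SNHG4 and SNORA74A -0.71 (0.257), and SNHG10 and SCARNA13 -0.04 (0.943). None passed after adjustment. A single pair could not have passed over 5 pairs even at the smallest possible p, so this outcome decides nothing. The splits also treat the sh4 and sh8 libraries as 1 group.

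**Figure D4:**
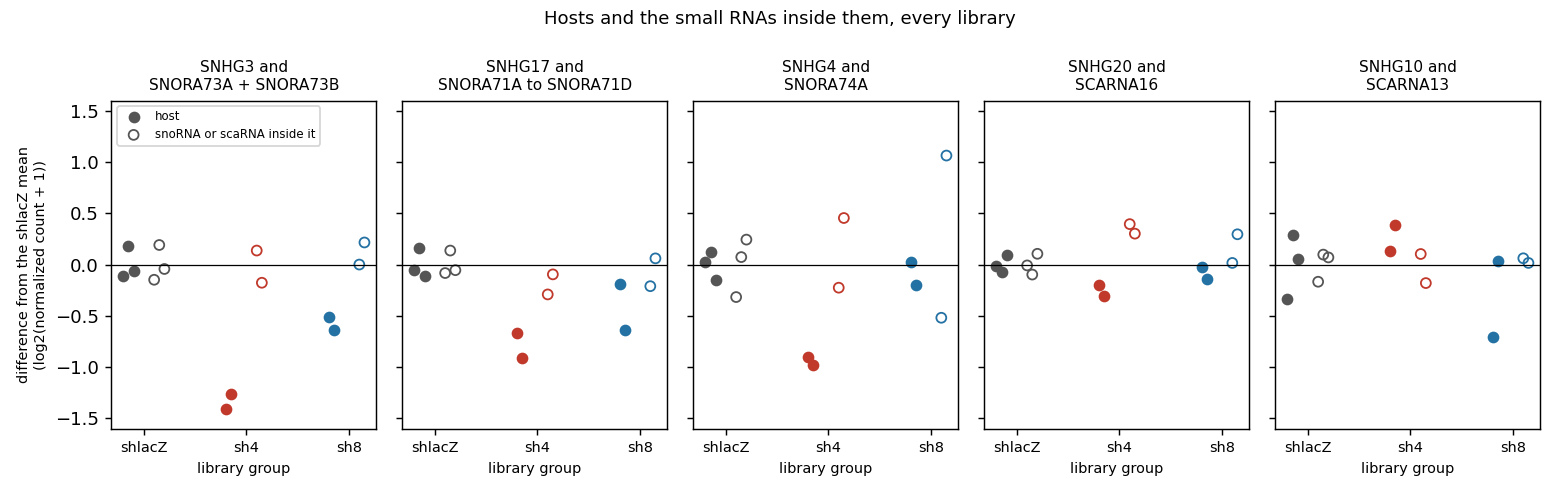
Hosts (filled) and the summed small RNAs inside them (open) in each library, as log2(normalized count + 1) minus the mean of the shlacZ libraries (y axis), by group (x axis). For SNHG3 the filled points lie below -1 under sh4 while the open points stay within 0.3 of the control mean.

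Starts of the hosts were read from hg38 at the GENCODE canonical transcript. A run of at least 8 pyrimidines within 10 bases of the start was present in 3 of 28 tested snoRNA hosts (10.7%) and in 10.7% of the 15408 tested genes with a start. With RefSeq starts it was present in 6 of 25 (24%) and in 10.9% of 10448 tested genes, so the comparison depends on the annotation. The E-box CACGTG, the same on both strands, was present in the window from 250 bases before to 50 after the start in 5 of 28 (17.9%) and in 9.35% of genes, and with RefSeq starts in 2 of 25 (8.0%) and in 10.1% of genes. The letters CTTTT, picked after the sequences had been seen, occurred on the gene's strand within 50 bases of the start in 7 of 28 (25%) and in 8.99% of genes, and the reverse complement AAAAG in 5 of 28 (17.9%) and 7.27%. From RefSeq starts CTTTT occurred in 8 of 25 (32.0%) and in 7.47% of 10448 genes. The hosts with it included 5 of the 18 that fell under sh4 and 2 of the 10 that did not. High hosts without a match at the GENCODE start included SNHG3, SNHG1, DANCR, SNHG17 and ZFAS1, which also fell under sh4. Windows of 30 bases are shown for 4 of the high hosts that had a match, with the match in capitals and all on the gene's strand. They lie at chr17:16439025-16439054 (plus), chr17:76557757-76557786 (plus), chr1:173867972-173868001 (minus) and chr6:85678716-85678745 (minus).
SNHG29: ataaggtgtgacCTTTTcattcccgttgtt
SNHG16: cggtctcgcgttCTTTTcgaggtcggccgc
GAS5: gcaccatactgtCTTTTcgaggtaggagtc
SNHG5: gcgcacttcggtCTTTTacgtcggccttcg
In SNHG29 and GAS5 the match began at the annotated first base (position 0), in SNHG16 at position -6 and in SNHG5 at position 15. A match is a run of letters and not a measured site.

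Protein-coding genes that hold snoRNAs were used for comparison. Of 233 tested, 62 fell under sh4 (26.6%, against 11.9% of all genes) and 22 rose (9.44%, against 10.5%), with a median of -0.22. These are high genes, with a median level of 1420 normalized counts. Of all genes with a mean of at least 1000, 21.5% fell and 10.1% rose, so much of the distance to 11.9% goes with level. Among them the 26 ribosomal protein genes had a median of -0.51, with 12 lower (46.2%), at a median level of 7500 normalized counts. The other 207 had a median of -0.18, with 50 lower (24.2%), at a median level of 1192. Protein-coding microRNA hosts had a median of 0.01, with 105 of 704 lower (14.9%, against 11.9% of all genes) and 120 higher (17.0%, against 10.5%). The snoRNA hosts among the long non-coding genes thus had a lower median (-0.81) than any of these sets, a description without a test.

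The proteins that work with these small RNAs were looked at as lists. Of 20 snoRNP proteins and assembly factors, 9 fell under sh4 and 0 rose (11.9% and 10.5% of all genes), with a median of -0.53. NOLC1, a nucleolar chaperone of snoRNPs, fell most, from 6119, 8032 and 7100 normalized counts in the control to 2988 and 3185 under sh4 (log2 fold change -1.19, adjusted p = 0.000564), with 4915 and 3977 under sh8 (adjusted p = 0.0383). For FBL, the methyltransferase of box C/D particles, the sh4 log2 fold change was -0.92 (adjusted p = 0.00493), for DKC1, the pseudouridine synthase of box H/ACA particles, -0.88 (0.0101) and for NOP56, a core box C/D protein, -0.70 (0.00875). NOLC1 was the only one past the test with both hairpins together or under sh8.

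Of 13 microRNA processing proteins, 1 fell under sh4, namely XPO5, which exports precursor hairpins (-0.52, adjusted p = 0.0239), and 0 rose. This share of 7.69% lay under the 11.9% of all genes that fell, and 10.5% rose. DROSHA, DGCR8 and DICER1, the nuclear and cytoplasmic hairpin-cutting complexes, named here for that role, had log2 fold changes of -0.25, -0.14 and -0.28 and did not pass. Factors of nonsense-mediated decay that fell under sh4 included MAGOHB, EIF4A3, UPF1 and UPF3B, with log2 fold changes of -0.72, -0.70, -0.62 and -0.59 (adjusted p = 0.0276, 0.0206, 0.0371 and 0.023). EIF4A3, the helicase of the exon junction complex, also passed under sh8 (-0.84, adjusted p = 0.0382) and with both hairpins together (-0.77, adjusted p = 0.0299).

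Exons of 7 snoRNA hosts overlapped another gene of the table on the same strand and exons of 11 on the opposite strand, and for the microRNA hosts these numbers were 2 and 17. The kit keeps the strand, but whether quantification used it was not given in the sources used here, so values of such members may include reads of the partner.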

How the data were processed

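RNA of 7 samples of 501Mel cells was depleted of ribosomal RNA and sequenced from stranded libraries. The authors trimmed reads with Cutadapt, aligned them to hg38 with STAR, quantified genes with Salmon and deposited 1 table of normalized counts, each a count divided by 1 size factor per library from DESeq2. Such scaling presumes that few genes shift. Versions, annotation and any gene filter were not given in the sources used here. All values were whole multiples of 1 read within 0.05 read, so reads were recovered for depth. As the values are not raw counts, no negative binomial test was run.

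limma (3.58.1, R 4.3.3) was fitted to log2(normalized count + 1) with a variance trend for 15420 genes with a mean of at least 10. A check on simulated data covered only both hairpins together, with the same changes in each. It did not check the comparisons of single hairpins. The pseudocount makes fold changes of low genes too small. Both hairpins together used a fit with 2 groups and the other comparisons a fit with 3 groups, with Benjamini-Hochberg adjustment over all tested genes. Alternatives were other pseudocounts, filters and scalings, no variance trend, a replicate block, limma-voom on recovered reads and leaving out each library. Positions came from GENCODE 44 (21281 identifiers matched) and RefSeq on GRCh38.p14. Named were members past the test, the 5 highest hosts per kb of each class, members with a host and snoRNA pair and leading genes of each list. Members and lists were chosen with earlier results of these data known. Counts over the list of nonsense-mediated decay factors are not reported here.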

Additional observations from a re-analysis of the deposited data

Results flagged for a closer look

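The hairpins differed in 7 members by the direct limma test of sh4 against sh8. The differences on the log2 scale were -0.75 for SNHG29 (adjusted p = 0.00852), -0.76 for SNHG16 (0.00991), -0.74 for GAS5 (0.00959), -0.76 for SNHG3 (0.0115), -0.89 for DANCR (0.0129), -0.86 for SNHG4 (0.00908) and -1.35 for MIR17HG (0.00631). In each of them both sh4 libraries lay under both sh8 libraries. In the 27 members given by library, the gap of the highest or lowest knockdown library to its neighbour was at most 0.815 of the range of the 4 libraries (MIR600HG, where sh8 replicate 2 had 84.6 normalized counts and the others 51.95 to 58.0), which is under the limit set for 4 values.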

How the results depend on the processing

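The count of 18 snoRNA hosts lower under sh4 was 16 to 19 in 9 other settings. The other counts were less stable, and the cause was not tested. With both hairpins together, the 6 snoRNA hosts became 3 with quantile normalization, 0 with no variance trend and 15 in a fit with 3 groups, which also gave 1 microRNA host in place of 0. With no variance trend the count was 0 under sh8 (3 as reported), 1 for sh4 against sh8 (6 as reported) and 2 microRNA hosts under sh4 (4 as reported), and upper-quartile scaling also gave 2. A minimum mean of 50 moved the median of the microRNA hosts under sh4 to -0.36. GRASLND lost its call with upper-quartile scaling (-0.80), with no variance trend (-0.85) and with the replicate block (-0.90).

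Deviations from the group means of same-numbered samples had r between -0.078 and 0.337. In a group of 2 libraries these deviations mirror each other, so the values cannot decide whether samples were paired. The main fits did not take the numbers as pairs. With the replicate number as a block, 0 snoRNA hosts passed with both hairpins together, 10 for sh4 against sh8, and 1 microRNA host under sh8. The block also ended the calls of MIR600HG and MIR30DHG under sh4, as did upper-quartile scaling and no variance trend, and that of SNHG32 under sh8.

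Leaving out each library in turn gave 0 to 11 snoRNA hosts with both hairpins together, 12 to 19 under sh4, 0 to 9 under sh8 and 0 to 12 for sh4 against sh8. It gave 1 to 5 microRNA hosts under sh4 and 0 to 3 for sh4 against sh8, and -0.99 to -0.73 for GRASLND. A lone library was assumed to vary like the other groups. Under sh8, uncalled log2 fold changes turned sign, that of MIR30DHG ranging from -0.30 to 0.11 (-0.08 as reported) and that of SNHG4 from -0.20 to 0.023 (-0.09 as reported). The ratio of SNHG3 to its snoRNAs, a test added after seeing the data, stayed between -1.16 and -0.82.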
